A study of Mus musculus with 4 samples.

Results

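Chromatin remodellers of the SNF2 family and their partner subunits were examined in mouse embryos that carry a changed Btaf1, itself a member of that family. The 48 genes were chosen by symbol: SNF2-family ATPases related to BTAF1, and subunits of the BAF, PBAF, ISWI, CHD and INO80 types of complex with their bromodomain partners. Of these, 47 had a probe under that symbol on the array, with 124 probes in all of 41174, and all 47 had at least 1 probe bright enough to test (98 probes). The remaining gene, Rad54b, has no probe under its own symbol; a probe that the reference gene table assigns to it by transcript gave a log2 ratio of -0.07 (limma, adjusted p = 0.728) and is not counted among the members.

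SNF2 ATPases use ATP to slide, evict or exchange nucleosomes. They rarely work alone: BAF and PBAF open promoters and enhancers, ISWI enzymes with their BAZ or BPTF partners space nucleosomes, CHD3 and CHD4 belong to the repressive NuRD complex, and INO80, SRCAP and p400 place or remove the histone variant H2A.Z. BTAF1 is unusual in its family, since its known substrate is the TATA-binding protein TBP, which it lifts off DNA, and not the nucleosome.

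The tested embryos were homozygous for the V1330M missense allele of Btaf1 and the others were wild type, on a mixed C57BL/6J and FVB/NJ background with 50 to 90% FVB/NJ in both. RNA of whole-embryo pools, mostly of 3 to 5 somites, was linearly amplified from 300 ng per dye and hybridised mutant against wild type on 4 two-colour arrays. There were 2 sets of pools, one paired by somite number (stage-matched) and one paired by litter with up to 5 somites of difference (age-matched). Each set was hybridised first with the mutant in Cy5 and then with the dyes exchanged. The design thus gives 2 independent pairs of pools (n = 2). The p-values of mutant against wild type rest on the spread between those pools, mostly as pooled over all probes (1 residual and 7.12 prior degrees of freedom). The comparisons of probes and of sets have other errors, which are stated with them.

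Every value below is a log2 ratio of mutant over wild type. A mean is over the 2 sets with the SD between the sets. Values of single arrays are given in a fixed order: stage-matched with mutant in Cy5, stage-matched with mutant in Cy3, age-matched with mutant in Cy5, age-matched with mutant in Cy3. Adjusted p-values are from limma, fitted over all 21940 tested probes, with a threshold of 0.05. The mutant channel had 52.9% to 59.6% of its 43379 spots well above background and the wild-type channel 57.1% to 59.5%, and 0 spots were saturated. The Btaf1 probe itself had a mean ratio of 0.10 ± 0.03 (adjusted p = 0.555); a missense allele need not change the level of its own transcript, so this does not check the genotype.

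The array carries 2 or more tested probes for 34 of the 47 genes, and for many remodellers these probes did not give the same answer. The probes below are shown because they carry that finding, with Brd3 as a contrast. Each is a 60-base probe in 5′ to 3′ orientation on the transcript, with no base marked. Its position is its first base on the transcript, and its coordinates are those given with the array (mm9).

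Baz1b, position 2235, chr5:135693477-135693536, plus strand: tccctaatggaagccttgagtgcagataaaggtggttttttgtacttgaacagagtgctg
Baz1b, position 4518, chr5:135720085-135720143, plus strand: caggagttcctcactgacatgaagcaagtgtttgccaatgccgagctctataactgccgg
Baz1a, position 514, chr12:55993976-55993997, minus strand: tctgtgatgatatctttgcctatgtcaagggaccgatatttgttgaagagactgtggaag
Baz1a, position 4838, chr12:55995257-55995316, minus strand: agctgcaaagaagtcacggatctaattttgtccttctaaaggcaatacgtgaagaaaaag
Chd1, position 355, chr17:15862365-15862424, plus strand: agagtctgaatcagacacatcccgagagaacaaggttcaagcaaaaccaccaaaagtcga
Chd1, position 4550, chr17:15901939-15903307, plus strand: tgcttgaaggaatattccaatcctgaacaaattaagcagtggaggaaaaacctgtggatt
Brd3, position 1657, chr2:27309872-27309931, minus strand: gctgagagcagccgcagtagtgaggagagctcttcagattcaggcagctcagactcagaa
Brd3, position 2053, chr2:27305955-27306014, minus strand: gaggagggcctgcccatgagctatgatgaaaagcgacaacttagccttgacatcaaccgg

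In Baz1b, Baz1a and Chd1 the mean was low in mutant embryos at the first probe and nearer 0 at the second, whereas in Brd3 both were low. The first Chd1 probe did not pass (limma, adjusted p = 0.0563), with -0.83, -1.25, -0.64 and 0.06 on the 4 arrays. The 2 Brd3 probes lie only 396 bases apart, while those of Baz1b, Baz1a and Chd1 lie 2283, 4324 and 4195 bases apart. The files' coordinates for the first Baz1a probe cover 22 bases of it and lie out of transcript order, so its place rests on the transcript position alone.

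With 1 value per gene, taken from the brightest tested probe, 5 of the 47 remodeller genes were lower in mutant embryos and 0 were higher. The background was 2.81% of 15282 genes called lower and 2.05% called higher. At an unadjusted p under 0.05, limma gave 11 genes lower and 5 higher. The 5 were Baz1b and Baz1a, both non-catalytic partners of the ISWI ATPases, Chd3, a NuRD ATPase, Brd8, the bromodomain subunit of the p400/TIP60 complex, and Brd3, a BET protein that reads acetylated histones. The median ratio of the 47 genes was -0.03, against 0.01 over all genes, and 25 were below 0 and 22 above. The calls were not stable. With no background correction, or without age-matched replicate 1, 0 genes were called lower, and without stage-matched replicate 1, 3 were. Lower calls fell over the whole array too, from 690 probes to 42, 13 and 393 in that order. Without age-matched replicate 1 the means were -0.87 for Baz1b, -0.69 for Baz1a, -0.79 for Chd3, -0.62 for Brd8 and -0.42 for Brd3.

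**Figure D1:**
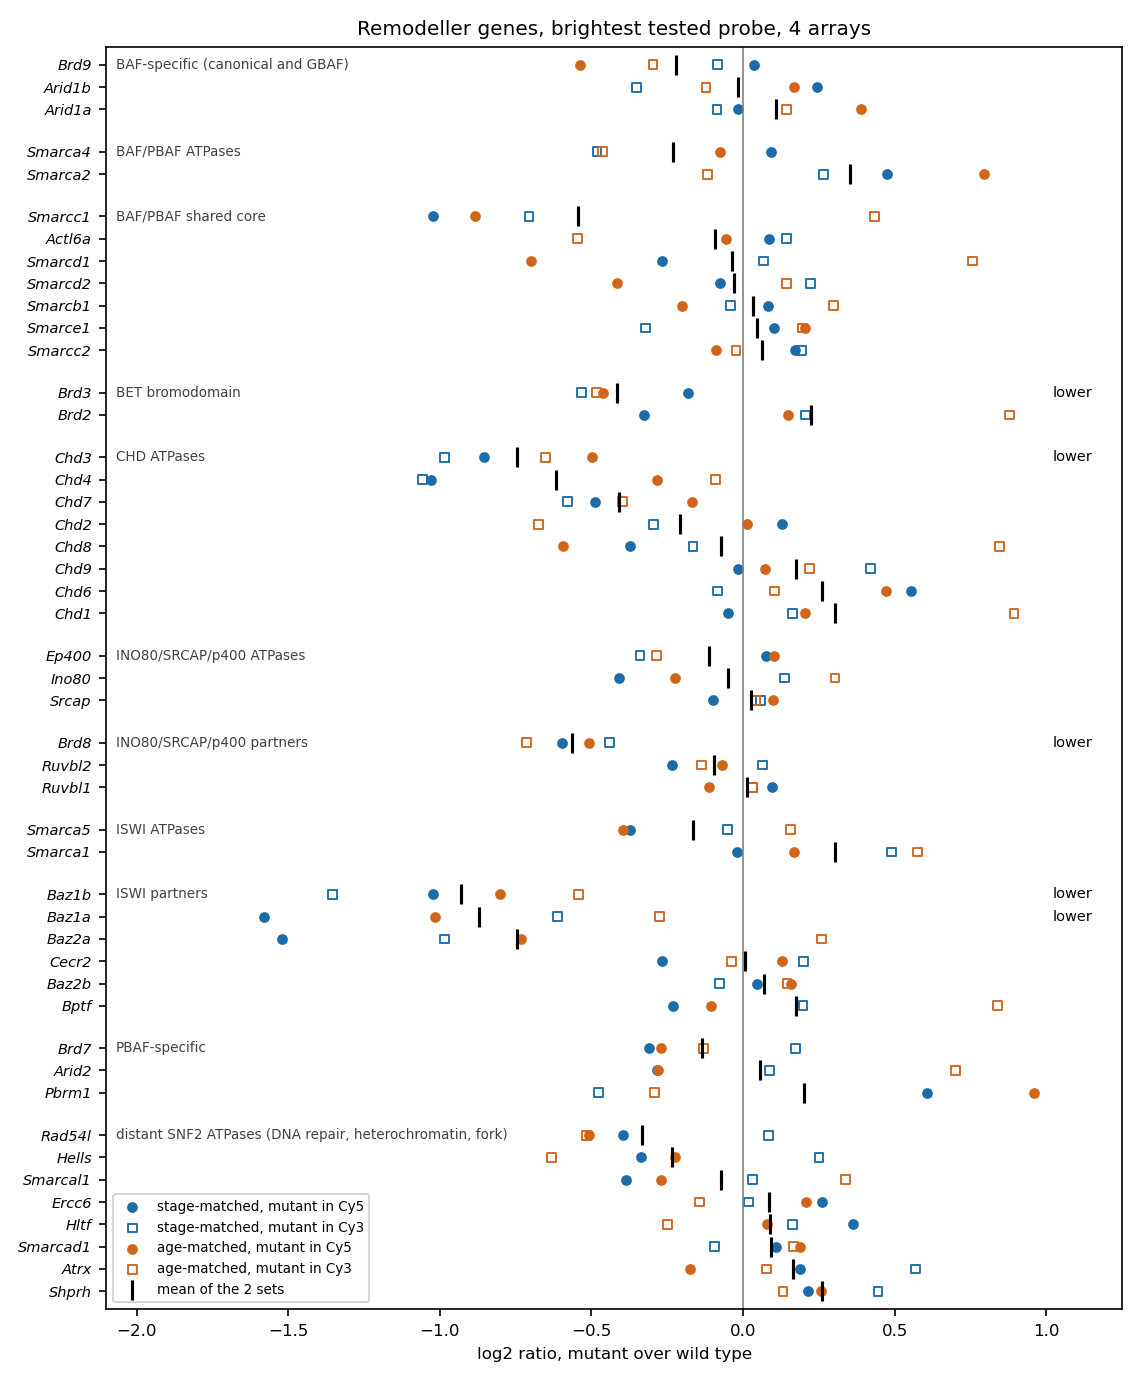
Log2 ratio of mutant over wild type (x axis) for each of the 47 remodeller genes (rows, grouped by role) at its brightest tested probe; circles are arrays with the mutant in Cy5, open squares arrays with the mutant in Cy3, blue the stage-matched and orange the age-matched set, and the black bar the mean of the 2 sets. The 5 genes marked lower lie left of 0 on all 4 arrays, while most other genes straddle 0.

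Among the ISWI partners, Baz1b had ratios of -1.02, -1.36, -0.80 and -0.54 on the 4 arrays. It was 1.91-fold lower in mutant embryos, with a mean of -0.93 ± 0.37 (adjusted p = 0.0133). BAZ1B (WSTF) is the partner of SMARCA5 at replication sites and is deleted in Williams syndrome in humans. Baz1a, whose product forms the ACF and CHRAC complexes with SMARCA5, had ratios of -1.58, -0.61, -1.02 and -0.28. Its mean was -0.87 ± 0.32 (adjusted p = 0.0134), and both arrays with the mutant in Cy5 were lower than their dye-exchanged partners. Baz2a, whose product TIP5 silences ribosomal RNA genes within NoRC, had -1.52, -0.99, -0.73 and 0.26, with a mean of -0.75 ± 0.72 that did not pass (adjusted p = 0.0737). The other ISWI partners, Baz2b, Bptf and Cecr2, lay between 0.01 and 0.18 at their brightest probes. The ISWI ATPases did not pass: Smarca5 had -0.37, -0.05, -0.40 and 0.16 (mean -0.17 ± 0.07). Smarca1, its paralogue, had -0.02, 0.49, 0.17 and 0.58 (mean 0.30 ± 0.10, adjusted p = 0.107) and was among the 3 highest members. The 2 paralogues thus lay on either side of 0, with no call for either.

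Among the CHD ATPases, Chd3 had -0.85, -0.98, -0.50 and -0.65, with a mean of -0.75 ± 0.24 (adjusted p = 0.0160). Its paralogue Chd4, the main NuRD ATPase of embryonic cells, had -1.03, -1.06, -0.28 and -0.09. All arrays were below 0, but the sets differed so much that the mean of -0.62 ± 0.61 did not pass (adjusted p = 0.0871). Chd7, the remodeller mutated in human CHARGE syndrome, had -0.49, -0.58, -0.17 and -0.40 (mean -0.41 ± 0.18, adjusted p = 0.0611). Chd1, which binds methylated histone H3 of active genes, was among the highest at its brightest probe, with -0.05, 0.16, 0.21 and 0.89 (mean 0.30 ± 0.35, adjusted p = 0.198); that probe belongs to another transcript model than the 2 shown above. Chd2, Chd6, Chd8 and Chd9 lay between -0.21 and 0.26, and none passed at its brightest probe.

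In the INO80, SRCAP and p400 group, Brd8 had -0.60, -0.44, -0.51 and -0.72, the narrowest spread of the 5 called genes, with a mean of -0.57 ± 0.07 (adjusted p = 0.0210). The ATPases Ep400, Ino80 and Srcap had means of -0.11, -0.05 and 0.03 at their brightest probes. The AAA+ ATPases that all these complexes share were near 0: Ruvbl1 had 0.10, 0.03, -0.11 and 0.03 (mean 0.01 ± 0.07, 95% interval -0.20 to 0.22) and Ruvbl2 had -0.23, 0.06, -0.07 and -0.14 (mean -0.09 ± 0.01, 95% interval -0.30 to 0.12). Neither interval reached the mean of Brd8.

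Of the bromodomain BET genes, Brd3 had -0.18, -0.53, -0.46 and -0.48 (mean -0.41 ± 0.08, adjusted p = 0.0467). Brd2 had -0.33, 0.21, 0.15 and 0.88 (mean 0.23 ± 0.41, adjusted p = 0.370), with its arrays on both sides of 0.

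No BAF or PBAF gene passed at its brightest probe. Smarca2, the BRM ATPase, was the highest of all members with 0.47, 0.26, 0.80 and -0.12 (mean 0.35 ± 0.02, adjusted p = 0.0670). Smarca4, the BRG1 ATPase that early embryos depend on, had 0.09, -0.48, -0.07 and -0.46 (mean -0.23 ± 0.05, adjusted p = 0.183). In both genes the arrays of each set disagreed with their dye-exchanged partners more than the set means disagreed with each other. Among the shared core subunits, Smarcc1 (BAF155) had -1.02, -0.71, -0.88 and 0.43 (mean -0.54 ± 0.45, adjusted p = 0.0720), while Smarcc2 (BAF170) had 0.17, 0.19, -0.09 and -0.02 (mean 0.06 ± 0.17, adjusted p = 0.760). The other core subunits, Actl6a, Smarcb1, Smarcd1, Smarcd2 and Smarce1, lay between -0.09 and 0.05. The BAF-defining DNA-binding subunits were near 0, with -0.02, -0.09, 0.39 and 0.14 for Arid1a (mean 0.11 ± 0.22) and 0.24, -0.35, 0.17 and -0.12 for Arid1b (mean -0.02 ± 0.05). Brd9, of the non-canonical BAF complex, had a mean of -0.22, and the PBAF-specific Arid2, Pbrm1 and Brd7 lay between -0.14 and 0.20.

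The 8 tested genes for more distant SNF2 ATPases, which act in DNA repair, heterochromatin and stalled replication forks, had 0 calls and lay between -0.33 for Rad54l and 0.26 for Shprh. Shprh, a ubiquitin ligase of fork repair, was the 1 member above 0 on all 4 arrays at its brightest probe (0.21, 0.45, 0.26 and 0.13). Of the 47 genes, 8 kept 1 sign on all 4 arrays, a share of 17.0%, against a background of 28.2% of all genes in either direction.

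Counting every tested probe rather than the brightest, 18 of the 98 probes were lower and 0 were higher, where the background was 3.14% lower and 1.66% higher of 21940 probes. At an unadjusted p under 0.05 the counts were 32 lower and 7 higher. The 18 came from 13 genes, 8 of which had no call at their brightest probe: Baz2a, Bptf, Chd4, Chd8, Ep400, Ino80, Pbrm1 and Smarca4. Among the 18, the Ep400 probe at position 2767 and the Smarca4 probe at 766 were tested only through their wild-type channel. Ep400 had no other call, while Smarca4 was also called at 1842, where both channels were bright enough.

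The position of the probe on the transcript went with its ratio. After this had been seen, the 2 outermost tested probes of the same transcript, at least 60 bases apart, were compared in each gene; 29 remodeller genes had such a pair, of 3730 genes in all. The upstream probe was the lower one in 25 of the 29 (86.2%), against 2577 of 3730 genes (69.1%). The median difference, upstream minus downstream, was -0.24 over the remodeller genes, against -0.08 over all genes. It was below 0 on each array, at -0.43, -0.16, -0.27 and -0.20 for the remodeller genes, against -0.11, -0.01, -0.18 and -0.03 for all genes. The upstream probes had a median ratio of -0.33 and the downstream probes 0.05.

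**Figure D2:**
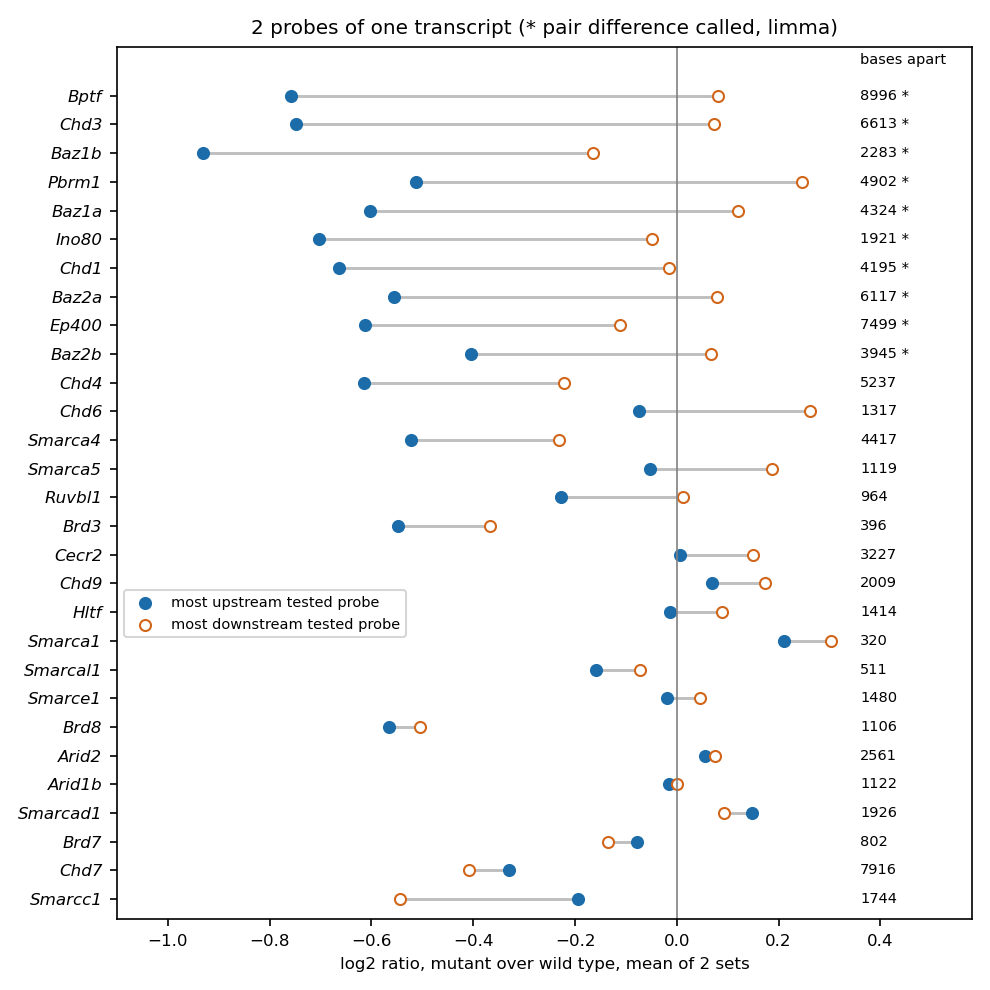
Mean log2 ratio of mutant over wild type (x axis) at the most upstream (filled blue) and the most downstream (open orange) tested probe of 29 remodeller transcripts (rows), with their distance in bases at the right; stars mark pairs whose difference passed limma. In 25 rows the blue point lies left of the orange one, and most orange points lie near 0.

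The difference passed limma over the 3730 genes in 10 remodeller genes with the upstream probe lower and in 0 with it higher, where the background was 7.18% lower and 0.858% higher. At an unadjusted p under 0.05 the counts were 13 lower and 1 higher. The 10 were Bptf, Chd3, Baz1b, Pbrm1, Baz1a, Ino80, Chd1, Baz2a, Ep400 and Baz2b, with differences from -0.84 to -0.47. This fit gave every gene the same standard error (0.146), so size alone decided which genes were called, whatever their spread between sets. In 9 of the 29 genes the difference was below 0 on all 4 arrays, against a background of 16.4%, and 8 of these 9 were among the called; in Pbrm1 and Ep400 it was not. Among the 98 tested probes, 7 were well above background on all 4 arrays in the wild-type channel but not in the mutant channel. With both channels required, 27 genes had a pair, the upstream probe was lower in 24, and 10 were called, with Smarca4 (-0.58, adjusted p = 0.00219) among them and Ep400 no longer measured as a pair. No pair was called (0 of 29) with median centring in place of loess, without stage-matched replicate 1 or without age-matched replicate 1, and 3 were called without age-matched replicate 2, with no background correction or with arrays scaled to a common spread.

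Bptf, the histone-reading subunit of the NURF complex, showed the difference along 4 probes of 1 transcript. At position 2221 its ratios were -0.69, -0.98, -0.66 and -0.71, with a mean of -0.76 ± 0.10 (limma, adjusted p = 0.00987). At positions 6538, 8874 and 11217 the means were -0.06, 0.18 and 0.08, so by mean the gene was low at its first probe and near 0 at the other 3. The arrays gave -0.48, -0.12, -0.53 and 0.87 at 6538, and -0.23, 0.20, -0.11 and 0.84 at 8874. Both of these means were thus raised by the age-matched array with the mutant in Cy3. The probe at 6538 was well above background on 3 of 4 arrays in the mutant channel. The brightest Bptf probe, at 8874, is one of those other 3, and by that probe the gene had no call.

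Chd3 had means of -0.75 at position 350, -0.43 at 2175 and 0.07 at 6963. The probe at 2175 was tested only through its wild-type channel, with 3 of 4 arrays well above background in the mutant channel. The upstream minus downstream difference of Chd3 was -0.82 ± 0.08 (adjusted p = 3.35e-06), and it was below 0 on all 4 arrays (-0.71, -1.05, -0.40 and -1.12). The call of Chd3 as lower rested on its first probe, which is the brightest. Chd4 had -0.62 at position 257, -0.83 at 3783 and -0.22 at 5494; the middle probe was called lower (adjusted p = 0.0364), and the difference between the outer probes was not (-0.39 ± 0.72, adjusted p = 0.0750).

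Baz1b had -0.93 at its upstream probe and -0.16 at its downstream one, where the 4 arrays gave -0.30, 0.12, -0.76 and 0.28. The difference was -0.77 ± 0.47 (adjusted p = 1.69e-05). Baz1a had -0.60 at position 514 and -0.87 at 1128, both called lower (adjusted p = 0.0219 and 0.0134), and 0.12 at 4838. On that last probe its arrays gave 0.20, 0.17, 0.19 and -0.09, so that 3 of 4 arrays lay above 0 where both earlier probes lay below 0 on all 4. In Baz2a the probes at 1869, 5761 and 5996 had means of -0.56, -0.69 and -0.75, and the probe at 7986 had 0.08. The Baz2a probe at 1869 was tested only through its wild-type channel. With both channels required, the Baz2a pair began at 5761 and was still called (-0.77).

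Smarca4 was called lower at both of its upstream probes, at position 766 with -0.76, -0.64, -0.64 and -0.06 (adjusted p = 0.0391; well above background on 3 of 4 arrays in the mutant channel and on 4 in the wild-type channel) and at position 1842 with -0.99, -0.98, -0.73 and -0.57 (adjusted p = 0.0113). Its brightest probe, at 5183, was not called. Its paralogue Smarca2 had a single tested probe, so the 2 BAF ATPases cannot be compared over the length of their transcripts. Ino80 had -0.70 at 4049 and -0.05 at 5970, Ep400 -0.61 at 2767 and -0.11 at 10266, and Chd1 -0.66 at 355 and -0.01 at 4550. The Ep400 probe at 2767, too, was tested only through its wild-type channel, with 3 of 4 arrays well above background in the mutant channel. In Pbrm1, the polybromo subunit of PBAF, the upstream probe gave -1.04 and -1.12 with the mutant in Cy5 but 0.05 and 0.06 with the mutant in Cy3. Its set means agreed closely, while its dye orientations did not, and the call of Pbrm1 rests on the arrays with the mutant in Cy5.

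Brd8 and Brd3 were low wherever they were measured. The 3 probes of Brd8 had means of -0.52, -0.57 and -0.50, all called lower (adjusted p from 0.0210 to 0.0260). The 3 probes of Brd3 had -0.55, -0.37 and -0.41, with 2 of the 3 called lower, and all 12 array values were below 0. Both outer differences were small, -0.06 ± 0.03 for Brd8 over 1106 bases and -0.18 ± 0.16 for Brd3 over 396 bases. Chd7 was low at both of its tested probes, -0.33 at position 1263 and -0.41 at 9179, though neither passed. The Chd7 probe at 1263 was tested only through its wild-type channel. Smarcc1 ran the other way from most, with -0.19 upstream and -0.54 downstream (difference 0.35 ± 0.40, adjusted p = 0.135). Besides Smarcc1 and Chd7, the genes with the higher upstream probe were Brd7 and Smarcad1, each by 0.06.

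**Figure D3:**
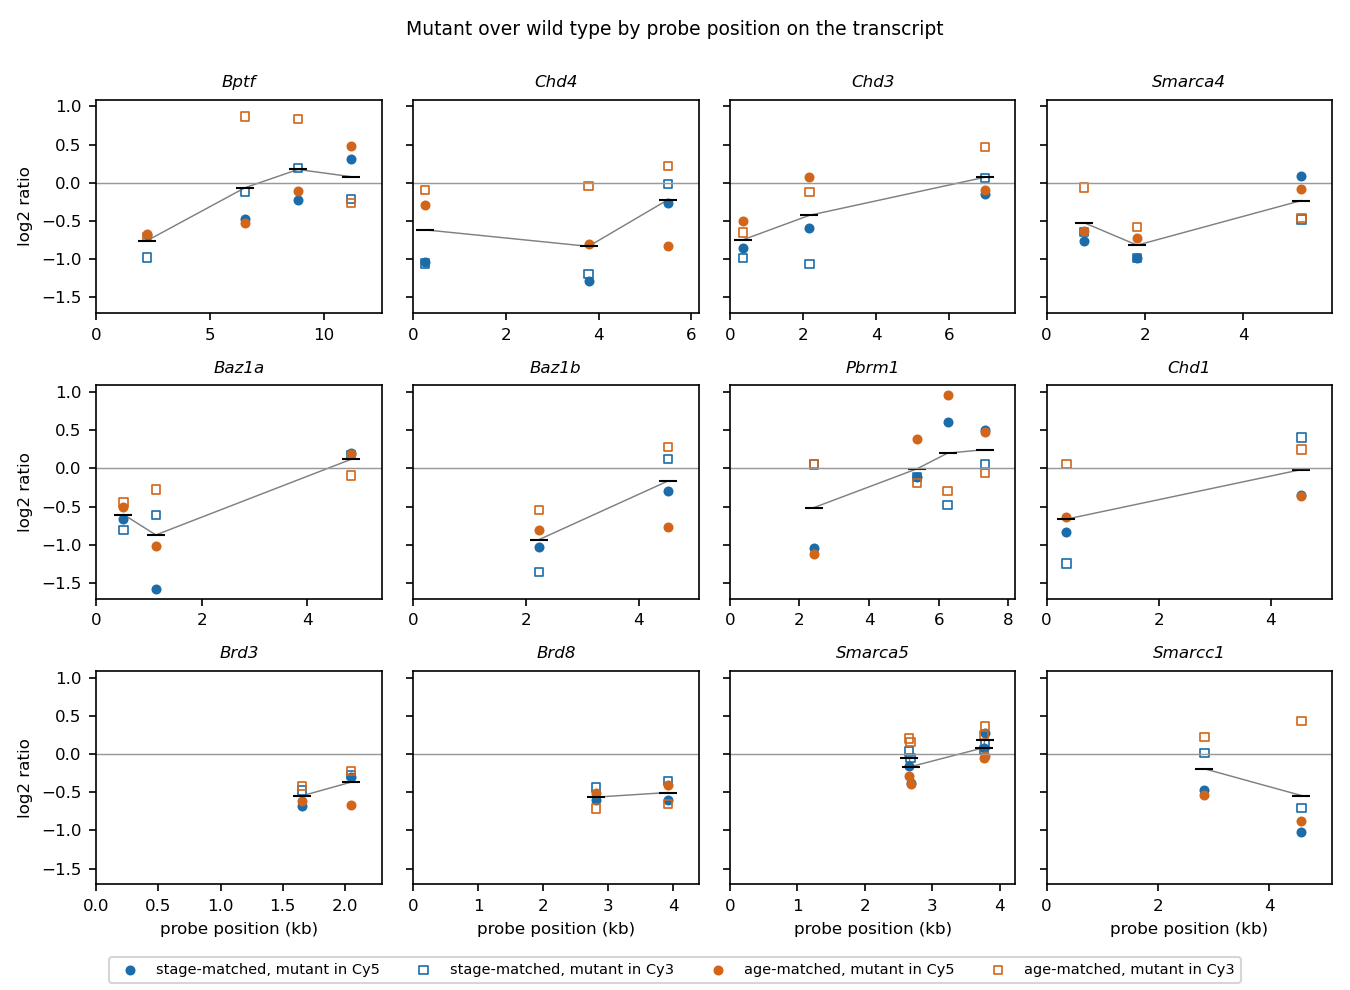
Log2 ratio of mutant over wild type (y axis) against the probe's position on the transcript in kb (x axis) for 12 remodeller genes, with the 4 arrays as in the plot of genes by role and black bars for the mean of the 2 sets; probes on another transcript model are not drawn. In Bptf, Chd3, Baz1a, Baz1b and Chd1 the first probe lies well below the last. Brd3 and Brd8 are low at both drawn probes, which lie 396 and 1106 bases apart, and Smarcc1 is lower at its last probe.

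Over all genes the difference grew with the distance between the probes. Of genes with probes 60 to under 500 bases apart, 0.760% had a called lower upstream probe, and of genes with probes at least 4000 bases apart, 28.9% did. The remodeller genes held many distant pairs: 10 of the 29 pairs were at least 4000 bases apart, against 228 of 3730. Within that class the median difference was -0.64 over the 10 remodeller genes, 7 of them called, against -0.25 over the 228. In the 4 classes of closer probes, from the shortest distances to the longest, the medians of the remodeller genes were -0.14, -0.09, -0.06 and -0.14, against -0.04, -0.08, -0.10 and -0.14 over all genes. They rest on only 2, 3, 9 and 5 remodeller genes, against 921, 842, 1031 and 708 of all genes. Since the members were chosen with results known, these shares are descriptions and no test of the list was made.

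**Figure D4:**
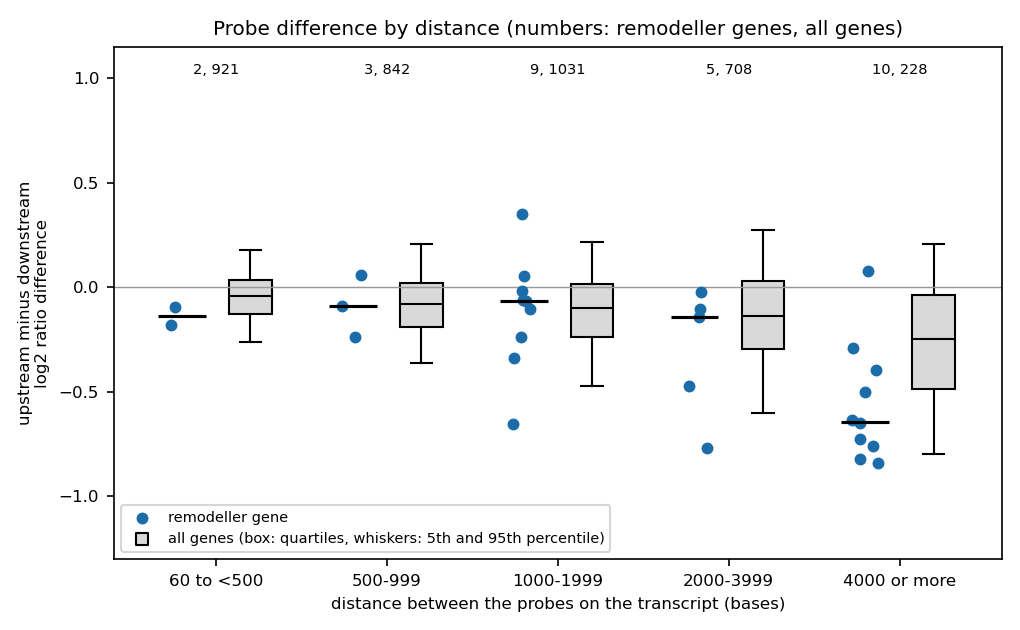
Difference in log2 ratio between the upstream and the downstream probe (y axis) by the distance between them in bases (x axis); blue points are remodeller genes with a black bar at their median, and grey boxes show quartiles of all genes with whiskers at the 5th and 95th percentile. In the class of 4000 bases or more, 9 of the 10 remodeller genes lie below 0 and their median (-0.64) lies below that of all genes (-0.25).

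Probe composition and brightness were set beside this. Over the 29 remodeller pairs the median GC content was 45% upstream and 38.3% downstream, against 43.3% and 40% over all genes. In pairs whose GC content differed by at most 5 percentage points, the upstream probe was lower in 14 of 16 remodeller genes (median -0.16), against 69.6% of 2001 genes (median -0.09). In these GC-matched pairs the difference was called in 3 of the 16, against 6.90% of the 2001 genes. In all remodeller pairs it was called in 10 of 29. The GC-matched remodeller pairs were also closer together, with a median distance of 1832.5 bases against 2009 over the 29. Where the upstream GC content was not above the downstream one, the upstream probe was lower in 7 of 9 remodeller genes (median -0.24). The difference was called in 4 of these 9, against 5.75% of 1513 genes (median -0.07). Where the upstream probe was at least as bright as the downstream one, it was lower in 12 of 12 remodeller genes (median -0.32), against 556 of 943 genes, or 59.0% (median -0.04). The labels give no measure of RNA integrity for the pools, and RNA was amplified before labelling; the part of either in the difference between probes was not tested.

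Read at the most upstream probe, 10 of the 29 genes were called lower and 0 higher (background 4.61% lower and 0.751% higher). The 10 include Ep400 and Smarca4, whose most upstream probes were tested only through the wild-type channel. Read at the most downstream probe of the pair, 1 was called lower, Brd8, and 0 higher (background 2.09% lower and 2.01% higher). Of the 5 genes called at the brightest probe, 3 had ratios near 0 or much smaller at the most downstream probe: 0.12 for Baz1a, 0.07 for Chd3 and -0.16 for Baz1b. Brd8 was called at each of its probes. Brd3 had -0.37 (limma, adjusted p = 0.0682) at the downstream probe of its pair and nearly the same, -0.41 (adjusted p = 0.0467), at its brightest probe. The 2 values lie on either side of the threshold. That brightest probe belongs to another transcript model and, by its coordinates, lies further downstream, so Brd3 was called at its last tested probe.

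The 2 sets were compared in a fit over the 4 arrays with a term for dye. Its error is that of dye-exchanged arrays of the same pools, so it holds no variation between embryos. Of the 47 genes, 3 differed at their brightest probe, against a background of 2.11%, and all 3 were lower in the stage-matched set. Baz2a had a stage-matched mean of -1.25 and an age-matched mean of -0.24, a difference of -1.02 (limma, adjusted p = 1.41e-05). Chd4 had -1.04 and -0.19, a difference of -0.86 (adjusted p = 0.000374). Smarcc1 had -0.86 and -0.22, a difference of -0.64 (adjusted p = 0.0225). With median centring or with no background correction 0 of the 47 genes were called here, and with the software's processed signals 1 was. Over all 98 probes 8 differed, against a background of 2.31% of all tested probes, and all 8 were lower in the stage-matched set. Besides the 3 brightest probes they were 1 further probe each of Baz2a and Chd4, the upstream probes of Chd1 (-0.75) and Ino80 (-0.72), and the middle probe of Chd3 at position 2175 (-0.81). That Chd3 probe was tested only through its wild-type channel. The upstream probe of Chd3, at position 350, was not called (-0.34, adjusted p = 0.421). In Baz2a, Chd1 and Smarcc1 the age-matched array with the mutant in Cy3 lay above 0 while the other 3 arrays lay below it.

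**Figure D5:**
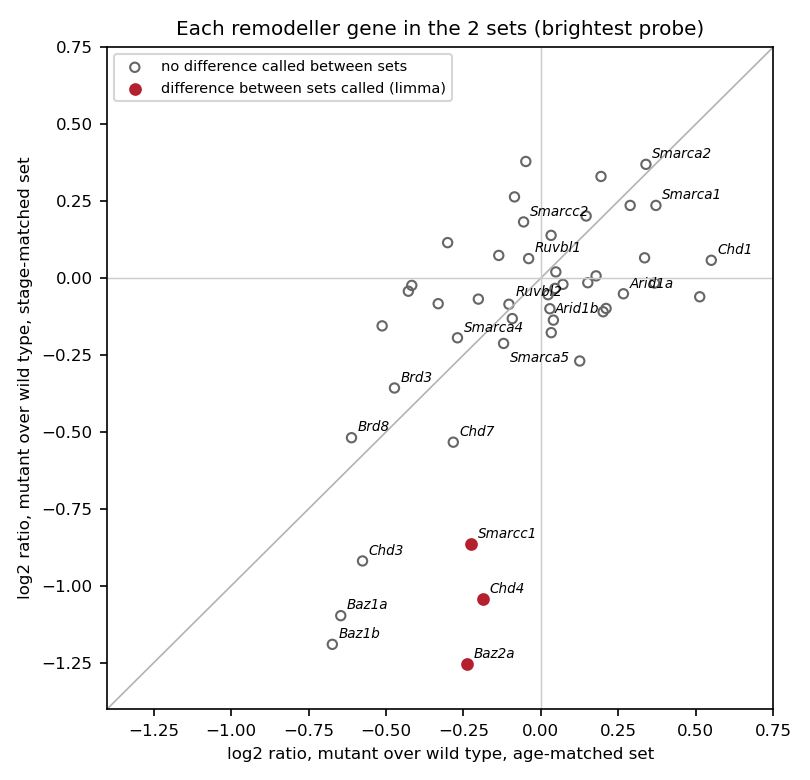
Log2 ratio of mutant over wild type in the stage-matched set (y axis) against the age-matched set (x axis) for the 47 remodeller genes at their brightest probe, with the diagonal of equal ratios; filled red points are the 3 genes whose difference between sets passed limma. Baz2a, Chd4 and Smarcc1 lie well below the diagonal, and Brd3 and Brd8 lie close to it.

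Other genes of the same complexes and families were taken from fixed lists. Of 64 such genes 57 were tested, with 1 lower and 0 higher and a median ratio of 0.02; at an unadjusted p under 0.05, limma gave 4 lower and 0 higher. With 2.81% of all genes called lower, 1 of 57 is near the background. The 1 was Chrac1, a histone-fold partner of BAZ1A and SMARCA5 in CHRAC, with -0.59 ± 0.12 (adjusted p = 0.0204). It was the lowest of the lists, followed by Mbd3, the NuRD scaffold, with -0.39 ± 0.04 (adjusted p = 0.0544). The highest were Smarcd3, a BAF subunit of heart and muscle, with 0.20, and Epc1, a subunit of the TIP60 complex, with 0.19; neither passed. By list, 0 of 11 BAF and PBAF genes, 0 of 22 INO80, SRCAP and TIP60 genes, 0 of 11 NuRD genes, 0 of 7 other SNF2-family genes and 0 of 3 bromodomain and ATRX-partner genes passed, and 1 of 3 ISWI partners did. Of these genes 21 had a probe pair, and the upstream probe was lower in 12, which is 57.1%, against 69.1% of all genes.

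The promoters of the remodeller genes were searched for TATAAA on both strands, from 250 bases before to 50 after the start site (RefSeq, GRCm38.p6). It was found in 4 of 47 windows of the 38 genes that matched, which is 8.51%, against 13.6% of 32851 windows. The 4 were those of Baz2b, Hltf, Ruvbl1 and Smarcd2. A match is letters in a window and not a TBP site.

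Tissue markers had larger ratios than most remodeller genes. All 10 genes of visceral endoderm and yolk sac were lower in mutant embryos, with a median of -1.06, as were 6 of 7 heart genes (median -1.39) and 2 of 3 tested genes of primitive red cells (median -1.57). Of 6 genes of the early mesoderm and neural plate 2 were higher, Tbx6 (0.89) and Meox1 (0.41). The others were not called and lay on both sides of 0: T (0.41), Sox2 (-0.14), Otx2 (-0.16) and Pax3 (-0.33). None of 3 tested trophoblast genes and none of 2 tested maternal genes passed. Some markers also had unlike ratios in the 2 sets, with no test of this given here. Hbb-b1, an adult globin, had -1.35 in the stage-matched set and 0.91 in the age-matched set, and Prl8a2 of the decidua had -0.94 and 0.51. Of the trophoblast genes, Prl3d1 had -0.39 and 0.49, while Elf5 had 0.32 and 0.34 and Ascl2 -0.21 and -0.09. The median of the early mesoderm and neural plate genes was also lower in the stage-matched set (-0.03 and 0.25). The yolk sac genes had medians of -1.20 and -1.07, but single genes went both ways. Amn, Cubn, Slc2a2 and Ttr were lower in the stage-matched set, and Afp, Apoa1, Apoa4, Apob, Rbp4 and Trf in the age-matched set. The heart genes ran the other way, with a median of -0.88 in the stage-matched set and -1.84 in the age-matched set. In such bulk RNA, fewer cells of a type and less RNA per cell cannot be told apart. The part of tissue composition in the remodeller ratios was not tested.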

How the data were processed

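Per the file headers, the deposited spot and background intensity of both dyes is unnormalized scanner output. The deposited processed intensity and the authors' deposited table of log10 ratios were used for checks and alternatives alone. The labels name Feature Extraction 9.5.3, the file headers 10.5.1.1.

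With limma 3.58.1 in R 4.3.3, background was corrected by normexp (offset 50) and dye bias by loess within each array; signs were turned to mutant over wild type. A probe was tested if it was well above background in 1 channel on all 4 arrays and had no marked spot. Arrays of a set were averaged, and the 2 set means fitted (1 residual and 7.12 prior degrees of freedom, Benjamini-Hochberg). Such a small residual makes adjusted p-values approximate: on simulated data of this design, false calls exceeded their nominal share. The number of arrays limits the precision. All arrays shared 1 slide and scan.

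Members, lists and named genes (calls, the 3 highest and lowest, 1 sign with a mean of at least 0.3, paralogue pairs) were chosen with earlier results of these data known. The probe comparison was added after seeing the data. The gene table and promoters are GRCm38.p6; probe coordinates are mm9, with no annotation of exons or untranslated regions used here.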

Additional observations from a re-analysis of the deposited data

Results flagged for a closer look

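For 6 remodeller genes, unlike stage-matched and age-matched ratios of mutant over wild type were flagged, by a test or by sign alone. Baz2a (-1.02), Chd4 (-0.856) and Smarcc1 (-0.64) differed by the limma test of stage-matched minus age-matched, where the background was 2.11% of 15282 genes. The share of all genes that meet the sign rule is not given here. In Actl6a (0.416), Arid1a (-0.318) and Smarcc2 (0.238) both arrays of one set lay on the other side of 0 from both arrays of the other set; limma did not call these differences (adjusted p = 0.264, 0.484 and 0.672). Actl6a had a mean of 0.11 in the stage-matched set and -0.30 in the age-matched set, Arid1a -0.05 and 0.27, and Smarcc2 0.18 and -0.06.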

How the results depend on the processing

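The direction of the upstream-probe difference held under each alternative tried, its size and calls did not. With median centring in place of loess, the median ratio was -0.13, and 0 genes were called in the difference between sets and 0 for a lower upstream probe. With no background correction, 0 genes were called lower and 0 in the difference between sets, the median probe difference was -0.21, and 3 upstream probes were called. With the software's processed signals, 1 gene differed between sets and the median probe difference was -0.29. With arrays scaled to a common spread, 3 upstream probes were called. With the mean over all probes of a gene, 8 genes were lower and 1 higher, with a median of -0.11. With the most upstream probe 10 were lower (median -0.093); with the most downstream probe 1 was lower (median 0.025), and Baz1a and Chd3 turned to 0.12 and 0.073. With GC content matched within 5 points, 14 of 16 upstream probes were lower, with a median difference of -0.16, and 3 were called. With upstream GC content not above downstream, 7 of 9 were lower, with a median difference of -0.24, and 4 were called. Leaving out 1 array in turn gave 0 to 1 genes higher, 0 to 7 lower, a median of -0.088 to 0.0063, a median probe difference of -0.32 to -0.20, and 0 to 8 called upstream probes. Without age-matched replicate 1, 0 genes were called lower and 0 upstream probes, and without stage-matched replicate 1, 3 genes and 0 probes. Over the whole array, 13 and 393 probes were called lower in these settings, and 42 with no background correction, against 690 with all arrays and background correction. Upstream probes were called in 3 genes without age-matched replicate 2, and in 8 without stage-matched replicate 2. The causes were not tested. Of 14 alternatives, Baz1a and Baz1b kept their call in 11, Brd8 and Chd3 in 10 and Brd3 in 5. Each array sets a mutant pool against its matched wild-type pool, so every ratio is already paired.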
